A study of Mus musculus with 59 samples.

Results

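The 78 mouse genes of the mitochondrial ribosomal proteins were taken from the 54838 Ensembl genes in each count file by their symbols, Mrpl or Mrps followed by a number and at most 1 letter, with no use of measured values. By symbol, 49 belong to the large subunit (Mrpl) and 29 to the small subunit (Mrps). The libraries come from male mice aged 12 weeks fed a high-fat or a low-fat diet for 2 weeks. All groups share 1 strain, which in its name carries the Cyp3a13tm1Ahs allele on FVB.129P2, the deletion Del(5Cyp3a57-Cyp3a59)1Ahs, and the transgene Tg(APOE-CYP3A4)A1Ahs, in which APOE elements drive human CYP3A4. The data used are 4 sets: liver mRNA (pull-down and input, 3 libraries for each diet), kidney mRNA (pull-down and input, 3 high-fat and 2 low-fat libraries each), small RNA of VsWAT, an abbreviation that the labels do not expand (pull-down and input, 3 libraries for each diet), and total RNA of VsWAT (3 libraries for each diet). The pull-down libraries hold RNA recovered by iTag labelling and the input libraries the RNA it was recovered from; which cells carried the label is not given in the sources used here. Whether each library of a group is another animal is not stated, so p-values here reflect only spread among the libraries, which may be technical.

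The mitochondrial ribosome translates the few proteins that mitochondrial DNA encodes, all of them membrane subunits of the respiratory chain and the ATP synthase. Its ribosomal RNAs are mitochondrial, whereas all its proteins are encoded in the nucleus, made on cytosolic ribosomes and imported. The small subunit binds the mRNA and holds the decoding centre; the large subunit joins amino acids and holds the exit tunnel. Liver, kidney tubule and fat cells all depend on this machinery for oxidative metabolism. Some symbols mislead about position: Mrps30 (mL65) and Mrps18a sit in the large subunit, and Mrps36 is a component of the 2-oxoglutarate dehydrogenase complex. Placing the members by structure gives 51 large and 26 small subunit genes, with Mrps36 left out.

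All 78 genes lie on autosomes (GRCm38.p6, RefSeq), spread over 17 chromosomes with at most 11 on one of them. The gene spans run from 825 to 121712 bases, with a median of 7690.5 bases, and 25 of them overlap the span of another gene. The strand setting of the counting is not given, so reads of such pairs cannot be told apart. Exon lengths were not used here, so levels are compared between libraries and never between genes. RefSeq promoter windows of 300 bases, not always at the first base of the gene span, were matched for 69 members and set beside those of 27025 genes. The median window of the members had 58.7% G and C and 21 CpG pairs, against 52.7% and 7 in all windows. Searched as exact letters on both strands, the ETS motif CCGGAAG was in 26 members (37.7%) and in 9.93% of all genes. The YY1 motif AAGATGGCG was in 8 members (11.6%) and 1.64% of genes, its shorter form ATGGCGG in 13 (18.8%) and 4.69%, and the NRF1 motif GCATGCGC in 8 (11.6%) and 3.05%; a copy of AAGATGGCG followed by G is counted under both YY1 forms. The CCAAT box was in 27 members (39.1%) and 41.1% of genes, and TATAAA in 5 (7.25%) and 15.7%. A match is a description of letters, not a bound site. The plus-strand windows of Mrps2, Mrpl14 and Mrpl24 lie inside gene spans that begin upstream, at 28465951, 45685722 and 87918131. For these genes the letters describe that window and not the first base of the span. The windows of 6 members that the results turn on are shown, with capitals marking the motif matches. Mrps24 had one of the 2 largest pull-down falls and holds AAGATGGCG near its start (chr11:5707652-5707951, minus strand), with TATAAA further upstream on the other strand. Mrps2 did not fall with the others and holds ATGGCGG on the other strand (chr2:28467816-28468115, plus strand). Mrps22 and Mrpl39 had the largest diet changes that passed in liver input; Mrps22 (chr9:98601630-98601929, minus strand) holds CCGGAAG, and Mrpl39 (chr16:84735195-84735494, minus strand) holds CCAAT and GCATGCGC on both strands in overlapping copies. Mrpl14 (chr17:45686099-45686398, plus strand), with the other of the 2 largest liver falls, and Mrpl24 (chr3:87919294-87919593, plus strand), higher in kidney pull-down, held none of the motifs searched.
Mrps24: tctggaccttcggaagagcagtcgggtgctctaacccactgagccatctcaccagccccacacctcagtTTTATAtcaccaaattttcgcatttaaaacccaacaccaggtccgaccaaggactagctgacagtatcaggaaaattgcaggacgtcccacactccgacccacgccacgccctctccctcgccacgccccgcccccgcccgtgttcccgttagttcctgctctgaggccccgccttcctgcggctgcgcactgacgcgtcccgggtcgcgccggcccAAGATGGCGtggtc
Mrps2: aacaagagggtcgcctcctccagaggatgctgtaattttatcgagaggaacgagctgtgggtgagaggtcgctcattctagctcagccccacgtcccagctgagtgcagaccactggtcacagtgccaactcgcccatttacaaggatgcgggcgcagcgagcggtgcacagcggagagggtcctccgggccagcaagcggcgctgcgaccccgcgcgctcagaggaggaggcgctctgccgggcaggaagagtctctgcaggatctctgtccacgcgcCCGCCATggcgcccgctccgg
Mrps22: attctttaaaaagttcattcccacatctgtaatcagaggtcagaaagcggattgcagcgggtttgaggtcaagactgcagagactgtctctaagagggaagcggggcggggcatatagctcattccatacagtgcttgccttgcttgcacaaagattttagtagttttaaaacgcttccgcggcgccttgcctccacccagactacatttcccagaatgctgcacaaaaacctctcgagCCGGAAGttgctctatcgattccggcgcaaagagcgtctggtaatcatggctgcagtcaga
Mrpl39: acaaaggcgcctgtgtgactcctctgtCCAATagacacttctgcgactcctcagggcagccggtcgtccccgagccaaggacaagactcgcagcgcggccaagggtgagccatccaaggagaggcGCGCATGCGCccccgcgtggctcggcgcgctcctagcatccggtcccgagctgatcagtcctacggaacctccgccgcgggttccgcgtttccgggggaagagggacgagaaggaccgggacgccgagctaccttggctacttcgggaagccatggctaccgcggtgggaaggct
Mrpl14: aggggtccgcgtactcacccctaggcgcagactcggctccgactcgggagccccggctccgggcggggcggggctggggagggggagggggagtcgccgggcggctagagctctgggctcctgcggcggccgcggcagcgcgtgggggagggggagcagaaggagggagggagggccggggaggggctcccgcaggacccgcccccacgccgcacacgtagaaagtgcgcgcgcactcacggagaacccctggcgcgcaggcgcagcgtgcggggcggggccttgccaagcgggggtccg
Mrpl24: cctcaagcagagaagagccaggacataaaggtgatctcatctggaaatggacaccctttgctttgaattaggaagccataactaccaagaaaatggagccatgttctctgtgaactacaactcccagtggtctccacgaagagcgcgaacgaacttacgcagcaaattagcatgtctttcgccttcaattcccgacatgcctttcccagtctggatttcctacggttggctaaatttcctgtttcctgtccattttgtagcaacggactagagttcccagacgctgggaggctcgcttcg

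Library totals ran from 3033702 to 4942158 counts in liver mRNA, from 3741335 to 19645443 in kidney mRNA, from 881578 to 2580104 in VsWAT small RNA and from 2556411 to 7940309 in VsWAT total RNA. In both mRNA sets, some input libraries of a group differed widely from each other. Liver input low-fat 1 differed from low-fat 2 and 3 by a chi-square per degree of freedom of 62.5 and 58.8, whereas low-fat 2 and 3 differed by 1.128, little above sampling noise (1 would be noise alone), and high-fat 1 and 3 by 1.182. Kidney input high-fat 1 differed from high-fat 2 and 3 by 91.4 and 92.3, whereas high-fat 2 and 3 differed by 6.19. The 2 kidney input low-fat libraries differed by 46.9. In VsWAT total RNA, high-fat 3 differed from high-fat 1 and 2 by 23.4 and 25.9, and high-fat 1 and 2 differed by 3.36. The low-fat libraries there differed by 23.9 to 47.7. Results that rest on liver input low-fat 1 or on the kidney high-fat inputs are given with and without them. Each tissue showed its defining markers. The 8 hepatocyte markers summed to 53400 to 74570 CPM (counts scaled to 1 common library total) in liver pull-down, against 59360 to 99880 in liver input; the 7 proximal tubule markers to 16730 to 33870 in kidney pull-down, against 65990 to 83030 in kidney input; and the 7 adipocyte markers to 20910 to 29020 in VsWAT pull-down, against 9757 to 11560 in VsWAT input. In liver, markers of the following other cells were lower in pull-down than input. The 6 endothelial markers summed to 27.6 to 37.4 CPM against 96.6 to 160.9, and the 6 macrophage markers to 20.3 to 38.0 against 65.6 to 112. The 6 fibroblast and stellate markers summed to 30.9 to 55.5 against 227 to 370. In kidney, distal and collecting duct markers were also lower in pull-down (744.2 to 1636 CPM against 2284 to 2777), as were podocyte markers (35.12 to 74.46 against 90.97 to 122.2). Endothelial (22.83 to 69.53 against 72.26 to 134.3) and fibroblast markers (20.88 to 79.56 against 101.4 to 170.5) were lower there too, and macrophage sums overlapped. The hepatocyte sums of liver pull-down and input overlapped; the part of cell composition in the results was not tested.

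In liver mRNA, the mitochondrial ribosomal protein genes were mostly lower in pull-down than in input. Of 76 members tested, 53 were lower and 1 was higher, where 36.1% of all 10864 genes tested were lower and 37.7% higher (edgeR quasi-likelihood test, Benjamini-Hochberg adjusted p under 0.05 over all genes). The median log2 change of the members was -1.001, against 0.02 for all genes. Of the 48 large subunit genes tested, 35 were lower and none was higher, with a median of -1.10. Of the 28 small subunit genes, 18 were lower and 1 was higher, with a median of -0.92. These are bulk libraries, in which fewer cells of a type and less RNA per cell cannot be told apart. Mrpl53, with 0 to 2 counts per library, and Mrps36, with 4 to 17, were too low to test.

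The largest liver falls were in Mrpl14 and Mrps24. Mrpl14, the uL14m protein of the subunit interface (chr17:45685722-45698495), had 17.2, 20.6 and 16.5 CPM after TMM scaling in high-fat pull-down and 26.1, 25 and 20.7 in low-fat pull-down, against 84.3, 108 and 82.5 in high-fat input and 259, 50.8 and 47.5 in low-fat input. Its log2 change was -2.32 ± 0.37 (SE; adjusted p = 0.0001078), and no pull-down library reached any input library. The span of Mrpl14 overlaps Tmem63b, whose own change was -0.61. Mrps24, the uS3m protein at the mRNA entry side of the small subunit (chr11:5703982-5707701), had 11.4, 12.5 and 12.9 CPM in high-fat pull-down and 12.9, 18.3 and 11.8 in low-fat pull-down, against 53.1, 66.6 and 52.0 in high-fat input and 144, 34.5 and 42.9 in low-fat input. Its change was -2.28 ± 0.32 (adjusted p = 2.982e-05), again with no overlap; its promoter is the first of the windows shown. In both genes the highest input value was that of low-fat 1. Among members at or above the median level, the next falls were in Mrpl30 (-1.89), Mrps18c (-1.77), Mrpl20 (-1.76) and Mrpl52 (-1.64), a protein found in mitochondrial and not in bacterial ribosomes.

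Members with known roles spanned the whole range of liver changes. At the stalk base, Mrpl11 changed by -1.22, whereas Mrpl12, the stalk protein that also binds the mitochondrial RNA polymerase, changed by -0.50. Mrpl58, the peptidyl-tRNA hydrolase also called ICT1, changed by -1.30. In the small subunit, Mrps12 of the decoding centre changed by -0.76, Mrps7 by -1.20, the pentatricopeptide repeat protein Mrps27 by -0.75 and Mrps5 by -0.33. Mrpl45, which sits near the exit tunnel at the membrane, changed by -0.76. All 8 passed the test. The 3 paralogs of bacterial S18 differed: Mrps18c fell by 1.77 and Mrps18a by 1.07 on the log2 scale, and Mrps18b had 0.42 ± 0.37 (adjusted p = 0.3162). The smallest changes were in Mrpl44, with its RNase III-like fold (0.04), Mrpl50 (0.06), Mrpl24 near the exit tunnel (0.08) and Mrps23 (-0.10), none of which passed. Mrps2, the uS2m protein (chr2:28465951-28471177), was the only member higher in pull-down: 55.1, 56.1 and 53.5 CPM in high-fat and 53.5, 58.9 and 59.5 in low-fat pull-down, against 47.3, 54.2 and 52.2 in high-fat and 47.9, 40.5 and 40.7 in low-fat input. The groups overlap by 1 input library, the change was 0.26 ± 0.09 (adjusted p = 0.01572), and without a filter on low counts the adjusted p was 0.1366. Without input low-fat 1 the same 53 members were lower and 3 higher, where 37.8% of 11191 genes were lower and 39.1% higher, with medians of -0.87 for the large and -0.69 for the small subunit.

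**Figure D1:**
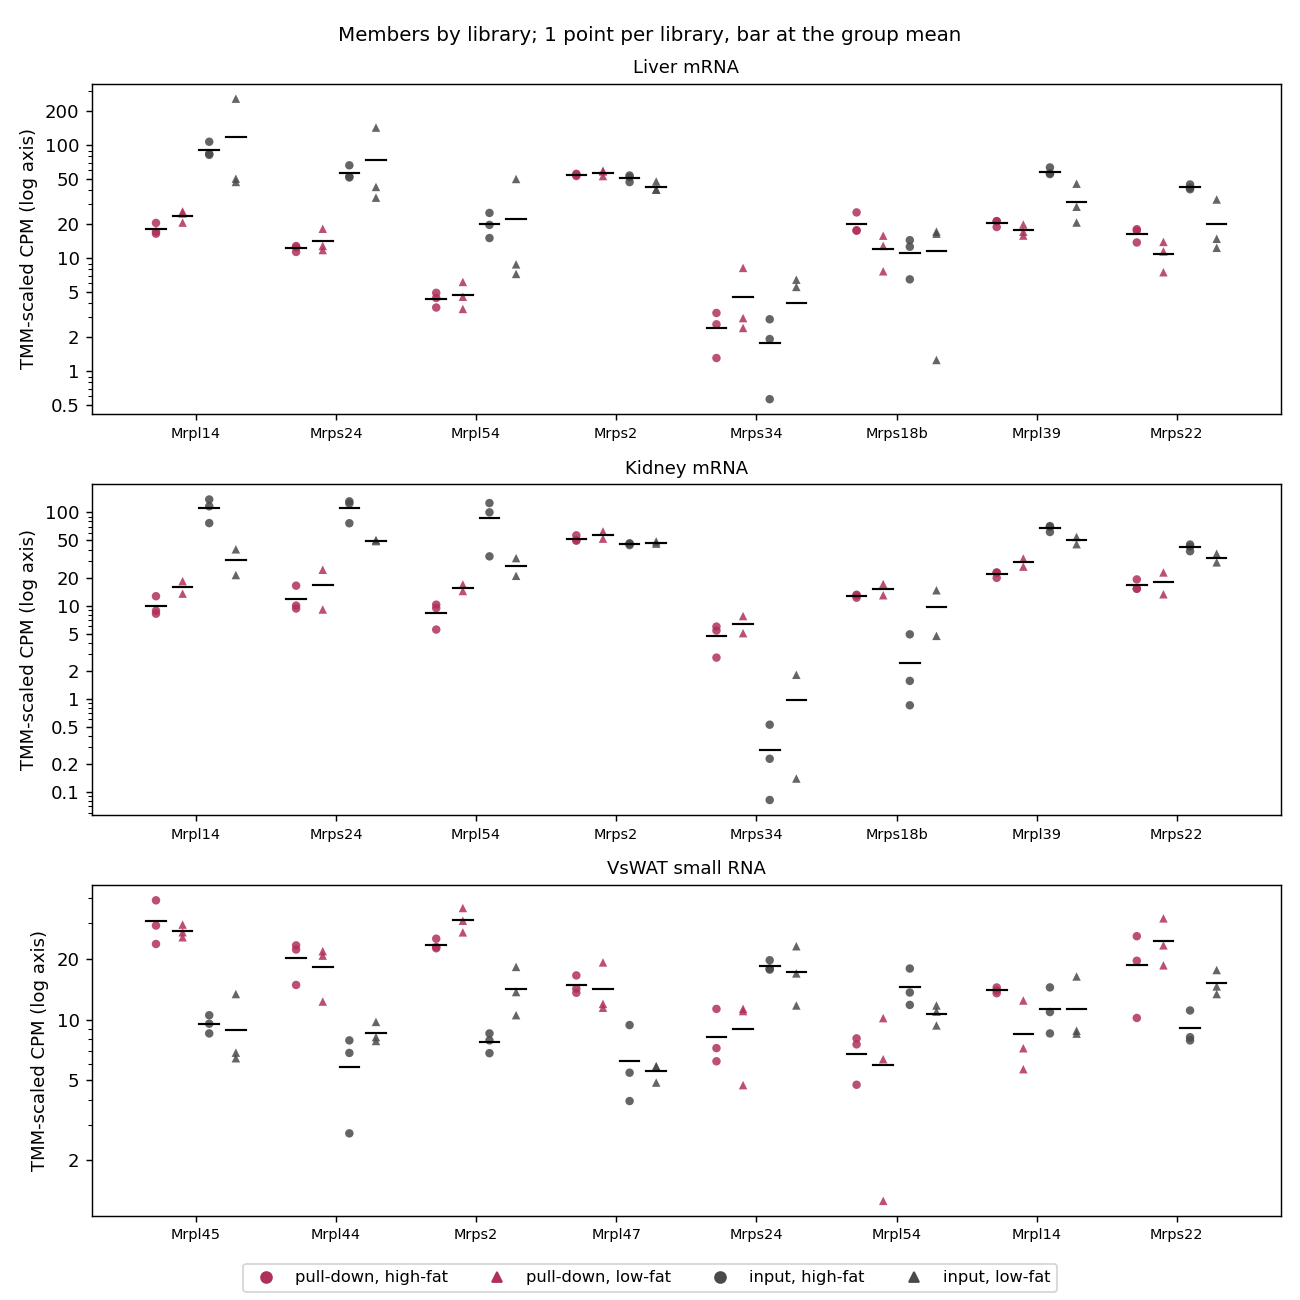
Levels of selected members in liver mRNA, kidney mRNA and VsWAT small RNA libraries, as TMM-scaled CPM on a log axis, 1 point per library with a bar at the group mean; pull-down is left of input, circles are high-fat and triangles low-fat. Mrpl14 and Mrps24 are lower in every pull-down than in any input library of liver and kidney, Mrps2 is level or higher in pull-down, and Mrps34 in kidney lies between 2.76 and 7.72 in pull-down and between 0.0818 and 1.81 in input. A value of 0 (Mrps34 in liver input low-fat 1) cannot be drawn on this axis.

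Other genes of mitochondrial translation did not all move this way in liver. Of 6 mitoribosome proteins without an Mrp symbol, 5 were lower, led by Chchd1 (-1.59) and Gadd45gip1 (-1.36), and Ptcd3, a pentatricopeptide repeat protein of the small subunit, was higher (0.96). Of 15 translation factors, 9 were lower, led by the elongation factor Tufm (-1.89) and the amidotransferase subunit Gatb (-1.65), and Guf1 was higher (0.50). Of 27 assembly factors, 12 were lower and 5 higher; of 19 mitochondrial aminoacyl-tRNA synthetases, 12 were lower and 3 higher; and of 19 transcription and RNA-binding genes, 6 were lower and 7 higher. Of 15 regulators of mitochondrial biogenesis, 13 were higher and none was lower, led by Myc (2.04) and Sirt1 (1.89). Of the 2 other protein complexes compared, 69 of 74 nuclear respiratory chain genes were lower (median -1.68) and 75 of 81 cytosolic ribosomal protein genes (median -1.57), with 1 higher in each (Atp5l, 1.49, and Rpl24, 1.38). The median fall of the mitochondrial ribosomal protein genes was smaller than those of both other complexes in liver, as a description of these libraries.

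**Figure D2:**
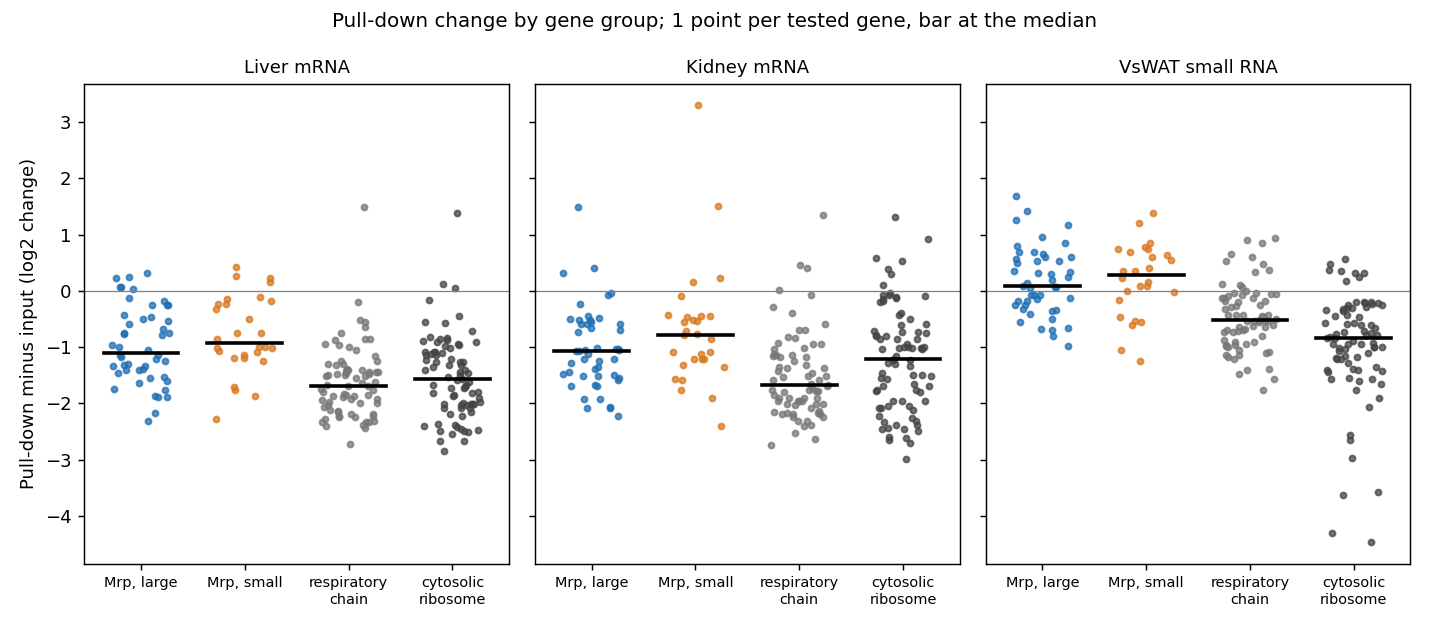
Log2 change, pull-down minus input, for each tested gene of 4 groups in liver mRNA, kidney mRNA and VsWAT small RNA, with bars at the group medians; horizontal scatter within a group has no meaning. In liver and kidney all 4 medians lie below 0; in VsWAT the large (0.08) and small (0.29) subunit medians lie just above 0 and the respiratory chain (-0.52) and cytosolic ribosome (-0.85) medians below it.

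In kidney mRNA, 61 of 77 members tested were lower in pull-down than in input and 3 were higher, where 26.4% of all 15020 genes tested were lower and 26.6% higher. The median was -1.05, against 0.01 for all genes. Of 48 large subunit genes, 40 were lower and 1 higher (median -1.06); of 29 small subunit genes, 21 were lower and 2 higher (median -0.79). Among members at or above the median level, the largest falls were in Mrps24 (-2.41 ± 0.28), Mrpl14 (-2.23 ± 0.24), Mrpl30 (-2.08), Mrpl34 (-1.92), Mrpl52 (-1.92) and Mrps6 (-1.77). Mrps24 had 9.99, 9.30 and 16.4 CPM in high-fat and 24.3 and 9.07 in low-fat pull-down, against 76.6, 132 and 125 in high-fat and 49.2 and 50.5 in low-fat input. Mrpl14 had 12.6, 8.79 and 8.18 CPM in high-fat and 18.3 and 13.4 in low-fat pull-down, against 76.8, 138 and 117 in high-fat and 21.3 and 40.2 in low-fat input. In both genes the pull-down and input libraries did not overlap, and high-fat 2 and 3 had the highest inputs. Mrps6, the bS6m protein, had 24.6 to 38.1 CPM over the pull-down libraries, against 71.7 to 133 over the inputs; its span overlaps Slc5a3, a myo-inositol transporter gene that was also lower (-1.01).

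The 3 members higher in kidney pull-down were Mrps34, Mrps18b and Mrpl24. Mrps34, a small subunit protein whose loss causes Leigh syndrome in humans (chr17:24895120-24896289), had 5.95, 2.76 and 5.40 CPM in high-fat and 7.72 and 5.06 in low-fat pull-down, against 0.526, 0.0818 and 0.227 in high-fat and 0.139 and 1.81 in low-fat input. Every pull-down library lay above every input library, and the change was 3.29 ± 0.53 (adjusted p = 0.000268). Mrps18b had 12.1, 13.1 and 12.9 CPM in high-fat and 12.9 and 17.0 in low-fat pull-down, against 4.91, 1.55 and 0.850 in high-fat and 4.73 and 14.6 in low-fat input (1.51 ± 0.41, adjusted p = 0.007812). Mrpl24 had 44.0, 39.5 and 42.8 CPM in high-fat and 38.9 and 43.1 in low-fat pull-down, against 15.6, 4.34 and 3.17 in high-fat and 15.6 and 42.1 in low-fat input (1.48 ± 0.39, adjusted p = 0.006221). For Mrps18b and Mrpl24 the pull-down values were close to each other and the spread was in the input, where high-fat 2 and 3 were lowest and low-fat 2 reached the pull-down values. Within the low-fat libraries alone these changes were 0.61 and 0.50, neither of which passed, and that of Mrps34 was 2.52 (adjusted p = 0.04379). Mrpl24 overlaps Rrnad1 and Mrps18b overlaps Gm16279, which were higher in kidney pull-down by 1.17 and 2.21.

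Without kidney input high-fat 2 and 3, 48 members were lower, all of them among the 61, and 3 were higher, where 19.7% of 14650 genes were lower and 20.2% higher; the medians were -0.88 for the large and -0.58 for the small subunit. Within the low-fat libraries, 2 against 2, 18 members were lower and 1 higher, where 6.75% of genes were lower and 6.15% higher, and Mrpl14 changed by -0.97 (adjusted p = 0.08468). Around the ribosome, 5 of 6 other mitoribosome proteins were lower and Ptcd3 higher (0.79); 6 of 15 translation factors were lower, led by Tufm (-1.10), and 1 was higher. The assembly factors had 8 of 28 lower, led by Malsu1, which binds Mrpl14 on the large subunit (-1.14), and none higher. The synthetases had 5 of 19 lower and 1 higher, and the transcription and RNA-binding genes 2 of 19 lower and 4 higher. Of the 15 biogenesis regulators, 12 were higher, led by Sirt1 (1.76) and Myc (1.59), and none was lower. The respiratory chain had 65 of 74 lower (median -1.68) and the cytosolic ribosome 58 of 83 (median -1.22), with 1 higher in each.

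The 2 tissues share no library. Of the members tested in both, 47 were lower in both, which is 88.7% of the 53 lower in liver and 77% of the 61 lower in kidney; none was higher in both and none was called in opposite directions. Over all 10357 genes tested in both, those lower in both were 63.1% of the genes lower in liver and 81.5% of those lower in kidney. Of these 10357 genes, 2598 were higher in both and 201 were called in opposite directions. Without liver input low-fat 1 the members' median change in liver was -0.76, against 0.02 for all genes. Without kidney input high-fat 2 and 3 their median change in kidney was -0.81, against 0.07 for all genes. Across the 76 members the changes in liver and kidney had a Pearson r of 0.777 and a Spearman rho of 0.847, and across all 10357 genes tested in both a Pearson r of 0.765; genes are not independent replicates, and the members share libraries and depth. Many members differed the same way between input libraries. Low-fat 1 lay above low-fat 2 and 3 in 70 of 76 members in liver (median log2 difference 0.98). High-fat 2 and 3 lay above high-fat 1 in 65 of 76 in kidney (median 0.43). These libraries also differed over all genes, by the chi-square values above, and the same counts over all genes are not given here. Mrps18b, Mrps34, Mrpl24 and Mrpl23 went the other way in both. They had -2.98, -2.81, -2.33 and -0.69 in liver and -1.44, -0.41, -1.82 and -0.56 in kidney. The part of that difference between input libraries in the pull-down changes of these genes was not tested.

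**Figure D3:**
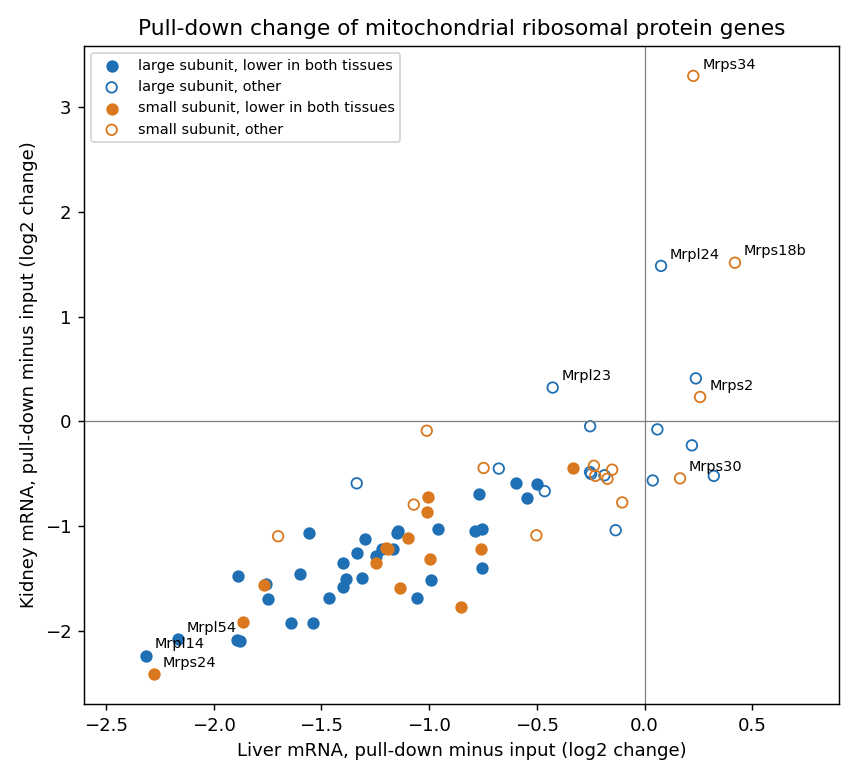
Log2 change, pull-down minus input, in liver mRNA (x) and kidney mRNA (y), 1 point per member tested in both; filled points were lower in both tissues at an adjusted p under 0.05. The 47 filled points run along a diagonal down to Mrpl14 and Mrps24, and Mrps34, Mrps18b and Mrpl24 lie high on the kidney axis.

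The pull-down change differed between the tissues for 2 members. The change in liver minus that in kidney, fitted over all 22 libraries, was higher for Mrps30 (0.55 ± 0.17, adjusted p = 0.03877) and lower for Mrps34 (-3.18 ± 0.82, adjusted p = 0.01271), where 3.75% of 13722 genes were higher and 8.95% lower. Mrps30 had 42.0 to 45.6 CPM in high-fat and 33.9 to 46.3 in low-fat liver pull-down, against 43.5 to 45.1 in high-fat and 27.5 to 36.6 in low-fat liver input. In kidney it had 24.8 to 30.9 and 32.6 to 41.9 CPM in high-fat and low-fat pull-down, against 44.8 to 48.8 and 45.2 to 51.9 in high-fat and low-fat input, with changes of 0.16 in liver (adjusted p = 0.1695) and -0.54 in kidney (adjusted p = 0.009048). With the replicate number as a block neither difference passed (adjusted p = 0.1013 for Mrps30 and 0.06367 for Mrps34), and the 2 counts depended on single libraries, with 26 members higher when liver input low-fat 1 was left out, where 12.5% of genes were higher.

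The VsWAT small RNA set differs from the liver and kidney mRNA sets in RNA kind as well as tissue, and the members did not fall as a group in it. Of 73 tested, 17 were higher in pull-down than in input and 4 lower, where 20.9% of 11168 genes were higher and 23% lower. The median was 0.16, against 0.01 for all genes. The large subunit had 10 of 47 higher and 2 lower (median 0.08), and the small subunit 7 of 26 higher and 2 lower (median 0.29). This split depends on the scaling: with library totals in place of TMM factors, 37 members were higher and none lower, where 45.3% of genes were higher and 10.4% lower, while the median of all genes moved to 0.59 and that of the members to 0.71. Mrpl23, Mrpl53, Mrps21, Mrps34 and Mrps36, with 0 to 14 counts per library, were too low to test.

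The members that were higher in VsWAT pull-down were led by Mrpl45, at 23.7, 29.3 and 39.1 CPM in high-fat and 27.1, 29.6 and 25.6 in low-fat pull-down, against 8.54, 9.54 and 10.51 in high-fat and 6.43, 6.85 and 13.4 in low-fat input. The groups were well apart, and the change was 1.69 ± 0.23 (adjusted p = 3.233e-05). Mrpl44, whose human counterpart is mutated in a cardiomyopathy, had 23.4, 14.9 and 22.3 CPM in high-fat and 20.8, 12.3 and 21.9 in low-fat pull-down, against 6.83, 2.73 and 7.88 in high-fat and 8.18, 7.83 and 9.74 in low-fat input (1.42 ± 0.27). Mrps2 had 22.6, 22.9 and 25.2 CPM in high-fat and 31.0, 27.1 and 35.8 in low-fat pull-down, against 8.54, 6.81 and 7.88 in high-fat and 10.52, 13.7 and 18.3 in low-fat input (1.38 ± 0.20). Neither gene had overlapping groups. Mrpl47 (1.25), Mrps31 (1.21), Mrpl18 (1.18), Mrpl51 (0.96), Mrpl3 (0.85) and Mrps22 (0.85) followed. Mrps6 was higher by 0.78, with its overlapping neighbour Slc5a3 at 0.57. The 4 lower members were Mrps25 (-1.24), Mrps24 (-1.04), Mrpl54 (-0.98) and Mrpl4 of the exit tunnel (-0.69). Mrps24 had 11.3, 7.22 and 6.21 CPM in high-fat and 11.02, 4.73 and 11.3 in low-fat pull-down, against 17.9, 17.7 and 19.7 in high-fat and 17.0, 11.8 and 23.1 in low-fat input, with no overlap (adjusted p = 0.007254).

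Of the 17 members higher in VsWAT pull-down, 6 were lower in liver pull-down, 14 in kidney pull-down and 6 in both. Among all members tested, 53 of 76 were lower in liver pull-down, 61 of 77 in kidney pull-down and 47 in both. Of the 4 lower in VsWAT, 3 were also lower in both liver and kidney. Across 73 members the VsWAT changes had a Pearson r of 0.539 with those of liver and 0.294 with those of kidney. Values over all genes are not given here for these overlaps and correlations. Among the other genes of mitochondrial translation, 3 of 14 translation factors were higher and none lower, led by the release factor Mtrf1 (1.66), 4 of 24 assembly factors were higher and 2 lower, and Ptcd3 was again higher (1.36). The synthetases had 3 of 17 higher and 1 lower (Lars2, -2.37), the transcription and RNA-binding genes 5 of 16 higher, led by Tefm (2.43), and 1 lower, and the biogenesis regulators 5 of 14 higher, led by Ppargc1a (1.41), and 1 lower. Of 73 respiratory chain genes 5 were higher and 31 lower (median -0.52), and of 79 cytosolic ribosomal protein genes 52 were lower and none higher (median -0.85). The adipocyte markers were higher in VsWAT pull-down, as given above, and the 4 lymphocyte markers summed to 11.2 to 46.6 CPM in pull-down against 243 to 308 in input. Other sums overlapped: endothelial markers had 105.5 to 264.5 in pull-down against 203.3 to 222.7, and macrophage markers 57.75 to 181.3 against 154.4 to 236. Hepatocyte markers had 768.6 to 3408 against 311.8 to 1936. The part of cell composition in these changes was not tested.

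The members' summed level in pull-down was below input in both mRNA sets and above it in the liver and VsWAT small RNA sets. Within liver the direction of this sum, taken on library totals, thus differed between the mRNA and the small RNA set. The change over all genes in liver small RNA is not given here, so a shift shared by all genes cannot be told apart. Liver or kidney mRNA and VsWAT small RNA differ in both tissue and RNA kind, and the part of each was not tested. All 78 members together took 1536 to 1804 CPM of the library total in liver pull-down, against 1903 to 3417 in liver input, and 1879 to 2438 in kidney pull-down, against 2717 to 4870 in kidney input. In VsWAT small RNA they took 1291 to 1583 CPM in pull-down, against 698.7 to 855 in input, on library totals, the scaling under which the median change of all genes was 0.59. In liver small RNA, a set used in no test, they took 1067 to 1217 CPM in 5 pull-down libraries, against 460.2 to 648.3 CPM in 6 input libraries. The highest liver sum was that of input low-fat 1 (3417 CPM), and the highest kidney sums were those of input high-fat 2 and 3 (4870 and 4732 CPM). Large subunit genes took 63.1% to 66.9% of the members' counts in liver pull-down, against 67.3% to 70.9% in liver input, and 66.5% to 68.0% in kidney pull-down, against 66.9% to 70.0% in kidney input. In VsWAT they took 60.7% to 65.3% in pull-down and 62.2% to 67.8% in input. Placing the members by structure moved the medians little: in liver to -1.06 for the large and -0.92 for the small subunit, and in kidney to -1.06 and -0.97. In VsWAT the medians stayed at 0.08 and 0.29. The difference between the subunits was not tested, because the members share libraries. Across members the change had a Pearson r with gene span of 0.053 in liver, -0.042 in kidney and 0.116 in VsWAT, and with mean level of -0.031, -0.441 and 0.337. The Spearman rho with mean level was 0.025, -0.137 and 0.387. Over all tested genes the Pearson r was 0.168, 0.019 and 0.286 with gene span and -0.009, -0.044 and 0.061 with mean level.

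**Figure D4:**
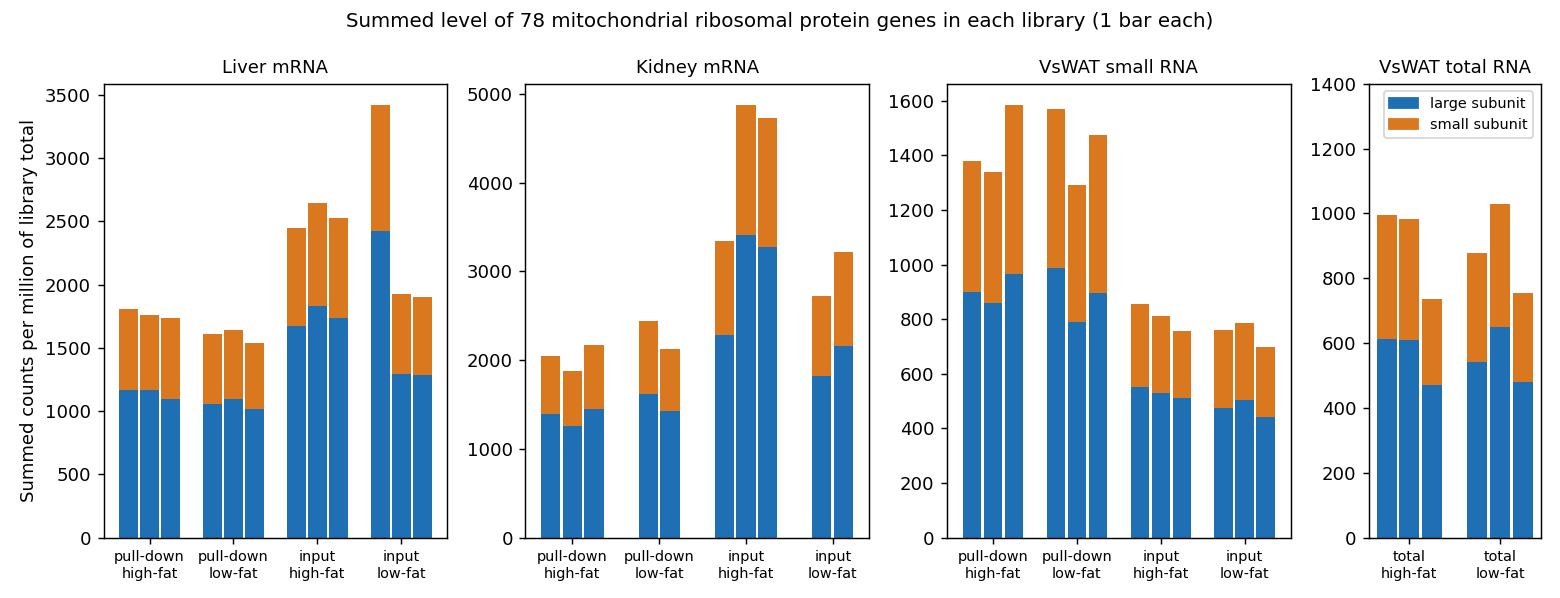
Summed CPM of the 78 members, from each library's total, 1 bar per library, split into large (blue) and small (orange) subunit genes; the panels have their own scales. Liver and kidney pull-down bars (1536 to 2438) are lower than their inputs (1903 to 4870), and VsWAT pull-down bars (1291 to 1583) are higher than theirs (698.7 to 855).

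Diet changed few members in liver input, and the count rests on 1 library. With all 6 libraries, 4 of 76 members were higher on the high-fat diet and none lower, where 8.87% of all genes were higher and 13.6% lower. Mrps22, a small subunit protein mutated in a human mitochondrial disease (chr9:98588730-98601679), had 42.2, 45.1 and 40.9 CPM in high-fat input, against 33.2, 14.9 and 12.4 in low-fat input (1.13 ± 0.31, adjusted p = 0.02005). Mrpl39 (chr16:84718281-84735244) had 55.7, 63.8 and 56.7 CPM in high-fat input, against 45.8, 28.6 and 20.8 in low-fat input (0.91 ± 0.22, adjusted p = 0.01183). In both genes the groups did not overlap, and low-fat 1 was the low-fat library nearest to the high-fat ones; their promoters are the third and the fourth of the windows shown. Mrpl50 had 67.9, 71.5 and 77.8 CPM in high-fat input, against 59.7, 44.2 and 43.9 in low-fat input (0.56 ± 0.16). Mrps30 had 43.5, 45.1 and 44.9 CPM in high-fat input, against 36.6, 27.5 and 30.7 in low-fat input (0.50 ± 0.15). When only the 2 compared groups entered the fit, no member passed.

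Without input low-fat 1, 42 members were higher on the high-fat diet, the 4 above among them, and 1 was lower, where 21.9% of all genes were higher and 20.3% lower. These were 28 of 48 large and 14 of 28 small subunit genes, with medians of 0.63 and 0.56, against 0.04 for all genes. The largest were Mrpl52 (2.12), Mrps22 (1.69), Mrps18c (1.65), Mrpl33 (1.63), Mrpl41 (1.58) and Mrpl54 (1.36). The lower one was Mrps34 (-1.62), at 1.93, 0.567 and 2.89 CPM in high-fat input, against 5.59 and 6.47 in the 2 remaining low-fat inputs and 0 in low-fat 1. Only 2 low-fat libraries then remained, which differed from each other by little more than sampling noise. With low-fat 2 and 3 summed and high-fat 1 and 3 summed, and low-fat 1 left out, 34 members were higher, where 13.9% of genes were higher. Mrps16, whose human counterpart is mutated in a neonatal disease, changed sign: it had -0.24 with all libraries and 0.75 without low-fat 1.

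**Figure D5:**
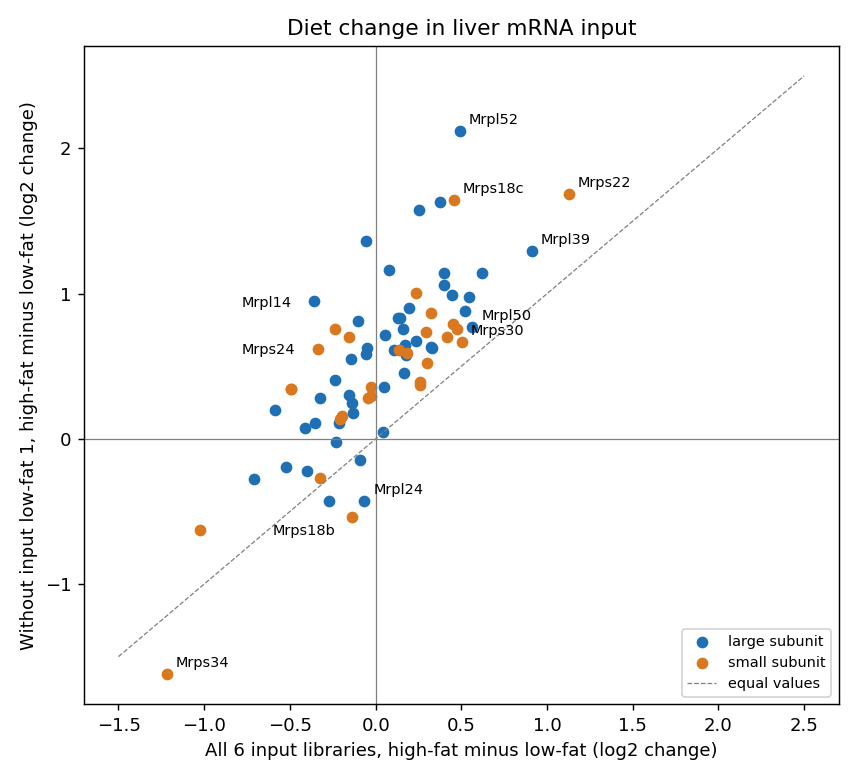
Log2 diet change (high-fat minus low-fat) of each member in liver mRNA input with all 6 libraries (x) and without input low-fat 1 (y); the dashed line marks equal values. Most points lie above the line, with medians near 0 on the x axis (0.05) and at 0.61 on the y axis.

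In liver pull-down no member of 76 passed for diet, where 5.96% of genes did (2.85% higher and 3.1% lower). The smallest p was that of Mrps5, at 41.2, 35.7 and 38.3 CPM in high-fat pull-down, against 24.96, 30.1 and 23.7 in low-fat pull-down (0.55, adjusted p = 0.1237), followed by Mrps27 (0.62) and Mrpl44 (0.56). At an unadjusted p under 0.05 edgeR counted 5 members higher and none lower, where 9.32% of genes were higher and 9.64% lower, and DESeq2 called none after adjustment. With total-count scaling 2 members passed as higher (4.15% of genes), and in a fit of only the compared groups 2 passed as higher and 1 as lower (7.4% and 7.87% of genes). The diet change in pull-down minus that in input passed for no member with all libraries, where 2.71% of genes passed (1.58% higher and 1.12% lower); edgeR counted 2 members higher and 1 lower at an unadjusted p under 0.05 (11.5% and 8.69% of genes), and DESeq2 called none. Without input low-fat 1, 31 members had a lower and 2 (Mrpl24, 0.81, and Mrps18b, 1.29) a higher diet change in pull-down than in input, where 15.2% and 11.8% of genes did.

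In kidney input no member passed for diet, and no gene of 15020 did (0%). At an unadjusted p under 0.05 edgeR counted 37 members higher and 3 lower, where 9.79% of genes were higher and 7.39% lower. The members' median was 0.55 (0.68 for the large and 0.48 for the small subunit), against -0.02 for all genes. The smallest p was that of Mrpl14, at 76.8, 138 and 117 CPM in high-fat input, against 21.3 and 40.2 in low-fat input, where the groups did not overlap (1.84 ± 0.34, adjusted p = 0.129). Mrps16 (1.15) and Mrpl33 (1.21) had the same adjusted p. DESeq2 called 15 members higher and 2 lower, where it called 2.43% of genes higher and 1.21% lower. Without input high-fat 1, edgeR called 37 members higher and 3 lower, where 9.13% of 14222 genes were higher and 8.63% lower. In kidney pull-down no member and no gene passed (0%), the members' median was -0.28, and DESeq2 also called no member. At an unadjusted p under 0.05 edgeR counted 2 members lower and none higher there, where 3.58% of genes were lower and 1.2% higher. The diet change in pull-down minus that in input also passed for no member or gene (0%), with 2 members higher and 42 lower at an unadjusted p under 0.05 (4.1% and 9% of genes). DESeq2 called 6 members lower, and 0.632% of genes. Without input high-fat 1, edgeR called 2 members higher and 33 lower, where 4.32% of genes were higher and 5.5% lower.

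In VsWAT no member passed for diet in any fit. In total RNA, where 0.279% of 12196 genes passed (0.082% higher and 0.197% lower), 63 of 74 members had a negative change, with medians of -0.17 for the large and -0.19 for the small subunit and -0.01 for all genes. The smallest p was that of Mrps7, which averaged 10.7 ± 2.1 CPM on the high-fat and 17.3 ± 1.8 CPM on the low-fat diet (SD, n = 3 each; -0.68, edgeR adjusted p = 0.206). At an unadjusted p under 0.05 edgeR counted 9 members lower and none higher, where 7.16% of genes were lower and 5.83% higher. In VsWAT small RNA, 0.0806% of genes passed in input (0.00895% higher and 0.0716% lower) and 0.457% in pull-down (0.17% higher and 0.287% lower). At an unadjusted p under 0.05 edgeR counted 1 member higher and 1 lower in input (1.84% and 2.35% of genes), and 1 higher and 3 lower in pull-down (6.07% and 5.16% of genes), led by Mrpl9 (1.07, adjusted p = 0.3607). For the diet change in pull-down minus that in input, which no gene passed (0%), the count was 1 lower and none higher (1.66% and 2.54% of genes). DESeq2 called no member in any of these 4 VsWAT comparisons.

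Of 77 members tested, 10 had a higher and 10 a lower input level in liver than in kidney, where 29.4% of 13722 genes were higher and 33.5% lower, and the median was -0.08, against -0.05 for all genes. The large and the small subunit had 5 in each direction. Mrps6 had the largest negative difference of the members tested; it averaged 13.9 ± 5.2 CPM in liver and 93.0 ± 22.8 CPM in kidney (SD, n = 6 and 5; -2.69 ± 0.22, edgeR adjusted p = 2.77e-10). Slc5a3, whose span Mrps6 overlaps, differed by -3.93, and its own counts cannot be told apart from those of Mrps6 in the shared stretch. Mrpl44 averaged 28.1 ± 5.1 CPM in liver and 53.6 ± 7.3 CPM in kidney (-0.90), next to its overlapping neighbour Wdfy1 at -1.67. Mrps26 (-1.29), Mrpl4 (-1.16), Mrpl50 (-0.64) and Mrpl12 (-0.53) were also lower in liver. Higher in liver were Mrps34 (2.71), Mrps18b (1.67), Mrpl23 (1.56), Mrpl14 (1.23), Mrpl24 (0.93) and Mrps27 (0.88). Mrps2 averaged 55.4 ± 7.0 CPM in liver and 41.2 ± 1.3 CPM in kidney (0.41). The groups did not overlap for Mrps6, Mrpl44, Mrps2 and Mrps27 and overlapped for the other 16. The share of all genes with groups apart is not given here. With library totals in place of TMM factors, 5 members were higher and 45 lower in liver, where 19% of genes were higher and 48.7% lower, with the median of all genes at -0.48 and that of the members at -0.52, and Mrps2 had -0.02. Without liver input low-fat 1, 6 were higher and 47 lower, where 25.6% of genes were higher and 41.7% lower, with the median of all genes at -0.27.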

How the data were processed

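Each library has a deposited table of raw counts. The submitters' processing notes name STAR, HTSeq and the build mm10. Neither versions nor the strand setting, nor how reads shared with processed pseudogenes were counted, are stated there. Per the labels, RNA of frozen tissue was extracted with NucleoZOL, and Diagenode's CATS small RNA kit served for every library, also those named mRNA. Counts of all Ensembl genes were fitted for each set with edgeR 4.0.16 (quasi-likelihood test, limma 3.58.1, R 4.3.3, TMM factors, filterByExpr with a minimum count of 10 and a total of 15, 1 coefficient per diet and fraction), with Benjamini-Hochberg adjustment over all genes tested and a threshold of 0.05; the pull-down change is the mean over both diets. The 2 comparisons of liver with kidney come from 1 fit of both mRNA sets. Means are TMM-scaled CPM with SD; ± after a log2 change is its SE. The script was tested on simulated counts. Members named were the 6 largest called changes in each direction at or above the median level, up to 4 called against the trend or nearest to 0, the 3 smallest p where none passed, and members fixed by role; the 6 largest in liver input without low-fat 1, Mrps34 between tissues and the genes drawn in the figures were chosen after their values were seen. Members and lists were chosen with earlier results of these data known. Symbols, spans and promoters are from RefSeq GRCm38.p6. Same-numbered libraries deviated together in liver pull-down across diets (correlations 0.11 to 0.124 in 3 pairs), where a replicate block also gave 0 members. They did so more in kidney input across diets (0.348 and 0.406 in 2 pairs). Between liver and kidney input the correlations were -0.052 to 0.273 in 5 pairs, over 0.1 in 3. Between pull-down and input of the same number they were -0.23 to 0.198 in 6 liver pairs and -0.169 to -0.011 in 5 kidney pairs. The replicate block for the liver minus kidney pull-down change joins these pull-down and input libraries, a pairing that these correlations do not show. Alternatives were RLE and total-count scaling, no filter, a mean of at least 10 CPM, the replicate block, only the compared groups, DESeq2 1.42.0, each library left out, and sums of near-identical libraries; within-diet fits and fits without several libraries were chosen after seeing the data.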

Additional observations from a re-analysis of the deposited data

Results flagged for a closer look

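The pull-down change of 2 members differed between liver and kidney by a test of the difference itself. For Mrps30, the liver change minus the kidney change was 0.5471 on the log2 scale (edgeR adjusted p = 0.03877), and it did not pass with the replicate block, without a filter on low counts, or in 8 of the 22 fits that left out 1 library. For Mrps34 it was -3.1819 (adjusted p = 0.01271), with 0 to 8.23 TMM-scaled CPM in the liver libraries and at most 1.81 CPM in every kidney input; it did not pass with the replicate block or in 2 of those 22 fits, without liver input high-fat 3 and without kidney input low-fat 1.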

How the results depend on the processing

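Of the alternative counts of members, 407 were within 1.5 times the main count and 109 were not; of single values, 5893 kept direction and side of the threshold, 193 lost and 200 gained the call, 21 medians over members moved by more than the spread between libraries, and 7 changed sign. For liver pull-down minus input, 1 member was higher; the count was 6 with total-count scaling, 0 without a filter, 2 with the replicate block, 0 with liver input low-fat 2 and 3 summed, 0 with high-fat 1 and 3 summed as well, 0 within high-fat and 2 within low-fat libraries. For diet in liver input (4 higher, 0 lower) it was 1 lower with total-count scaling or without a filter, 2 higher with the block, 0 with only the compared groups, 1 and 0 higher with 1 or both close pairs summed, and 34 higher with low-fat 1 left out as well. For diet in liver pull-down (0) it was 2 higher with total-count scaling, 1 lower without a filter, and 2 higher and 1 lower with only the compared groups. For the liver diet change in pull-down minus input (0) it was 1 lower without a filter, and 1 higher and 23 lower with low-fat 1 left out and close pairs summed. For diet in kidney input (0) it was 19 higher and 2 lower without a filter and 15 and 2 with DESeq2; for its difference from pull-down, 2 and 16 without a filter and 6 lower with DESeq2. For kidney pull-down minus input (3 higher, 61 lower) it was 1 higher at a mean of at least 10 CPM, and 1 and 18 within low-fat libraries. For VsWAT small RNA (17 higher, 4 lower) it was 37 and 0 with total-count scaling, 2 lower without a filter, 7 lower with the block, 8 and 2 within high-fat, and 8 and 1 within low-fat libraries. For the liver minus kidney difference of the pull-down change (1 and 1) it was 3 higher with RLE, 4 with total-count scaling, 3 and 4 without a filter, 0 lower at 10 CPM, 0 and 0 with the block, 5 higher with DESeq2, 3 higher with low-fat 2 and 3 summed, and 16 and 3 without the 3 libraries that stand apart. For the input level (10 and 10) it was 5 and 45 with total-count scaling, 18 lower without a filter, and 5 and 28 without those 3 libraries. The replicate block moved no other count by over 1.5 times. Shares of all genes are not set beside the counts of this section, including those with libraries left out. None of these counts is read as a result about the members. Same-numbered pull-down and input libraries of VsWAT had correlations of 0.047 to 0.306, over 0.1 in 5 of 6 pairs and highest with the own number in 6 of 6, a hint from the data and not from the labels that the numbers pair them. Leaving out 1 library at a time gave 0 to 3 higher and 51 to 55 lower in liver pull-down, 3 to 4 and 55 to 65 in kidney pull-down, 13 to 21 and 2 to 4 in VsWAT pull-down, 1 to 42 and 0 to 1 for diet in liver input, 0 to 2 and 0 to 31 for its difference from pull-down, 0 to 37 and 0 to 3 for diet in kidney input, 0 to 2 and 0 to 33 for its difference, 0 to 26 and 0 to 5 for liver minus kidney pull-down change, 6 to 12 and 7 to 47 for the input level, and 0 for diet in liver and kidney pull-down and in VsWAT. The signs that turned were Mrps16 for diet in liver input (-0.5413 to 0.7546 with 1 library left out, the highest without low-fat 1, and 0.8107 with close pairs summed too), Mrps21 (-0.5092 to 0.8709 with 1 library left out, the highest without input low-fat 2) and Mrpl12 (0.0715 within low-fat) in kidney pull-down, and in the input level Mrps2 (-0.0174) and Mrps30 (-0.3664) with total-count scaling and Mrps22 (-0.3882 to 0.0196 with 1 library left out, the lowest without liver input low-fat 1); the cause was not tested. Mrpl53 had at most 7 counts in any library of the sets fitted and was not tested.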

Other observations

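Plasma small RNA libraries entered no comparison. The members together took 244.5 to 901.4 CPM in 4 pull-down libraries, against 77.7 to 293.5 CPM in 4 input libraries, with 5 to 14 and 27 to 63 members detected.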
